A study of Mus musculus with 7 samples.

Results

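Genes for proteins of the centrosome, the spindle pole and the kinetochore were examined in single mouse oocytes with and without the H3K4 methyltransferase gene Setd1b. The group held the genes whose symbols begin with Cep and a digit, with Cenp or with Tubg, together with Pcnt, Plk4, Sass6, Cntrob, Cdk5rap2, Nedd1, Ninl, Nin, Tacc3 and Ckap5, where the deposited table places the transcript on the strand of the gene. This rule gave 58 genes with 1 transcript each among 33437 transcripts in the table. The rule itself used no measured difference between genotypes, but the group was chosen with earlier results of these data known. Cep112, which gives the group its name, was already known to be among the larger decreases.

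The study asked how loss of SETD1B in oogenesis affects H3K4 trimethylation and gene expression, and the data here are its single-cell RNA-seq of germinal vesicle (GV) oocytes, fully grown oocytes still arrested in meiotic prophase. All oocytes came from 21-day-old C57BL6 females labelled floxed/floxed for Setd1b, and the study's methods name the background of the line as C57BL/6OlaHsd. In Setd1b cKO (4 libraries) the females were Gdf9-Cre positive, and in Setd1b WT (3 libraries) they were Gdf9-Cre negative. The study's methods also allow controls that carry Gdf9-Cre with 1 floxed and 1 intact allele. Gdf9-Cre is a recombinase under an oocyte promoter that acts from early follicle growth. Each library held 1 oocyte. Which mother an oocyte came from is not given, so the p-values below measure the spread between oocytes.

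Centrosomes organise microtubules around a pair of centrioles surrounded by pericentriolar material, and in ciliated cells the older centriole carries distal appendages that dock it to the membrane as the base of a cilium. Mouse oocytes lose their centrioles before they are fully grown, and their meiotic spindle forms from microtubule organising centres that contain pericentrin and gamma-tubulin but no centriole. Most CENP proteins are instead parts of the centromere and kinetochore, which attach chromosomes to that spindle. Most Cenp genes of the group thus belong to another structure than most Cep genes. As exceptions, Cenpj is listed below with centriole assembly and Cenpv in no role list.

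Totals recovered from the table ran from 8582493 to 12972366 mapped reads per library, so that 1 read was worth 0.0771 to 0.117 reads per 1000000 mapped reads (RPM). Reads outside the quantified transcripts made up 13.2% to 16.4% of the Setd1b cKO libraries and 9.57% to 9.90% of the WT libraries. The Setd1b transcript itself stood at 8.31, 16.7, 12.8 and 2.68 RPM in cKO and 17.7, 16.3 and 8.61 RPM in WT, with overlapping genotypes, and since its reads were summed over the whole transcript, including what lies outside the deleted segment, the value does not check the deletion. Oocyte markers were at or above 1 RPM in all libraries for 14 of 14 listed genes in the table, with a summed level of 27958 to 29441 RPM in cKO and 34034 to 35560 RPM in WT. Of 21 granulosa cell markers in the table, 8 were under 1 RPM in every library, Amh and Foxl2 among them. At 1 RPM or more in every library stood 5, namely Serpine2, Esr2, Nr5a2, Cyp19a1 and Kitl. Inha was at 7.03, 11.4, 13.2 and 0.583 RPM in cKO and 0.810, 4.32 and 0 RPM in WT. Esr2 went the other way, at 76.0 to 95.8 RPM in cKO and 134 to 158 RPM in WT. The granulosa sum was 200.3 to 390.8 RPM in cKO and 246.7 to 413.3 RPM in WT. Sums were higher in cKO for theca and stroma markers (6.53 to 8.32 against 1.85 to 3.27 RPM, mostly Dcn) and for blood markers (4.61 to 13.1 against 2.16 to 3.74 RPM, all from Cd68). The part of these shifts in the results below was not tested. As RPM is a share of the reads of a library, a change in the RNA content of an oocyte cannot be told apart from a change of all other transcripts.

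The promoter-side sequences of the 2 members that passed the threshold of the test are shown here, because H3K4 methylation by SETD1B acts at promoters and the letters show how rich in CpG, the dinucleotide in capitals, both starts are. The sequences are from RefSeq on GRCm38.p6, plus strand, and end at the base before the start of the deposited transcript, at chr11:108425016-108425191 for Cep112 and chr10:100487351-100487543 for Cep290.
Cep112: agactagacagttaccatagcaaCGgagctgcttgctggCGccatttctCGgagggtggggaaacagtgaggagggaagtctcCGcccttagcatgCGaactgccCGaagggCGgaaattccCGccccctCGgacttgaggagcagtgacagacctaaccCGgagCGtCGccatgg
Cep290: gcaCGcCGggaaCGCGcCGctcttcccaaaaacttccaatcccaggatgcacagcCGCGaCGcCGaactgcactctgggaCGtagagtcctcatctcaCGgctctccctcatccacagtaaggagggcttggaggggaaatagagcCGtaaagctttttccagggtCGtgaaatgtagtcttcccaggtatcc
The 176 bases of Cep112 hold 12 CpG and the 193 bases of Cep290 hold 13. The RefSeq window from which the Cep290 stretch was taken also touches an exon of the neighbouring gene Tmtc3. RefSeq gives 3 starts for Cep112, and the window used lies nearest to the deposited transcript.

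Among 51 members with a RefSeq promoter window, 250 bases before to 50 after the annotated start, the window of 46 lay within 1000 bases of the deposited start. Their windows held a median of 22 CpG, with a range of 8 to 46, against 7 over all 32851 windows, and their median GC content was 61.0% against 52.7%. The letters GGGCGG were found on either strand in 31 of these 46 windows (67.4%) and in 35.7% of all windows. CCAAT, again on either strand, was in 25 (54.3%) against 37.4%, and TATAAA in 1 (2.17%) against 13.6%. CpG-rich starts without TATAAA are known from housekeeping genes, and most members had them. The full Cep112 window held 24 CpG and GGGCGG but not CCAAT.

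In the comparison of Setd1b cKO with WT, 2 of the 56 members tested fell past the threshold and 0 rose. They were Cep112 and Cep290. A transcript was tested if it had at least 1 RPM in at least 3 libraries, differences are log2 fold changes of cKO over WT on log2(RPM + 1), and the threshold was a Benjamini-Hochberg adjusted p under 0.05 in limma together with a change over 2-fold. Over all 18179 transcripts tested, 3.76% rose and 1.95% fell past it. In RPM, 9 of the 56 members tested had all cKO libraries under all WT libraries, where the background is 7.14% of transcripts, and 1 had all cKO libraries above, where it is 13.2%. The 9 were Cep112, Cep290, Cep89, Cep41, Cep170b, Pcnt, Nin, Ckap5 and Cenpj, and the 1 was Cep83os. With Cep131, which was not tested, 10 of the 58 members had all cKO libraries lower. An unadjusted p under 0.05 in limma was reached by 9 of 56 members (16.1%) and by 3948 of all transcripts (21.7%). An adjusted p under 0.05 was reached by 2 members (3.57%) and by 1118 of all transcripts (6.15%). The median log2 fold change was -0.08 over the members, of which 32 lay below 0 and 24 above, beside 0.12 over all transcripts, of which 39.7% lay below 0. After centring each library on its median transcript the same medians were -0.23 and -0.03, and after quantile normalisation -0.15 and 0.01.

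**Figure D1:**
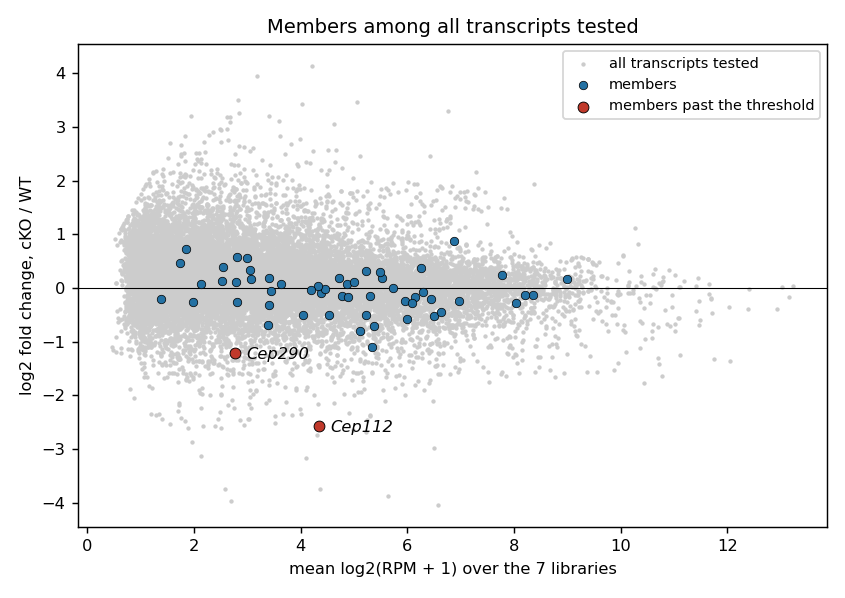
Log2 fold change of Setd1b cKO over WT (y axis) against the mean log2(RPM + 1) over the 7 libraries (x axis), with grey points for the 18179 transcripts tested, blue for members and red for the 2 members past the threshold. Cep112 at -2.58 lies below the other members, which run from -1.22 to 0.88.

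Cep112, which encodes a coiled-coil protein of the centrosome, showed the largest difference of the members. The transcript (ENSMUSG00000020728) spans 435424 bases on the plus strand of chromosome 11, chr11:108425192-108860615 on GRCm38, and matches the protein-coding gene in GENCODE M21, with 35 exon blocks and 6175 bases of exon. It stood at 63.0, 74.1 and 37.1 RPM in the WT oocytes and at 5.94, 9.06, 12.2 and 7.81 RPM in the cKO oocytes. The highest cKO oocyte was thus well under the lowest WT oocyte. These levels rested on 778, 961 and 397 reads in WT and 60, 110, 140 and 67 reads in cKO. The group means were 58.1 ± 19.0 RPM (SD, n = 3) in WT and 8.75 ± 2.63 RPM (SD, n = 4) in cKO. Cep112 fell by 2.58 on the log2 scale, with an SE of 0.31, a 95% interval from -3.26 to -1.90 and an adjusted p of 0.00279 in limma.

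The decrease placed Cep112 at rank 15 among the 355 transcripts that fell past the threshold, ordered by log2 fold change. Over 19 alternative fits, among them those without each library in turn, its log2 fold change ran from -2.87 to -2.17 and its adjusted p in limma from 7.48e-05 to 0.0216. No other transcript of at least 1 RPM overlaps Cep112 on either strand in the table. The nearest named gene downstream, Axin2, a negative regulator of Wnt signalling that begins 59709 bases beyond the end of Cep112, was at 20.4 ± 3.16 RPM (SD, n = 3) among the WT oocytes and 23.9 ± 2.43 RPM (SD, n = 4) among the cKO oocytes. Its log2 fold change was 0.22 (adjusted p = 0.621, limma). The next on the same strand, Gm11668, 111343 bases beyond Cep112, had all cKO libraries above WT, with a log2 fold change of 1.53 (SE 0.40, adjusted p = 0.0506, limma). Farther off, Rgs9 on the minus strand (364740 bases beyond, log2 fold change -0.65, adjusted p = 0.260) and an unnamed transcript (451183 bases, -0.97, adjusted p = 0.102, both limma) had all cKO libraries under WT. Gm11696 (502164 bases, 0.39) and the plus-strand Amz2 transcript (565301 bases, -0.07) overlapped between genotypes, and a minus-strand transcript filed as Amz2 (590250 bases) rose by 3.10 on the log2 scale (adjusted p = 0.000576, limma). Per kilobase of exon, Cep112 was at 9.41 RPM in WT, rank 19 of the 58 members, and at 1.42 RPM in cKO, rank 41.

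**Figure D2:**
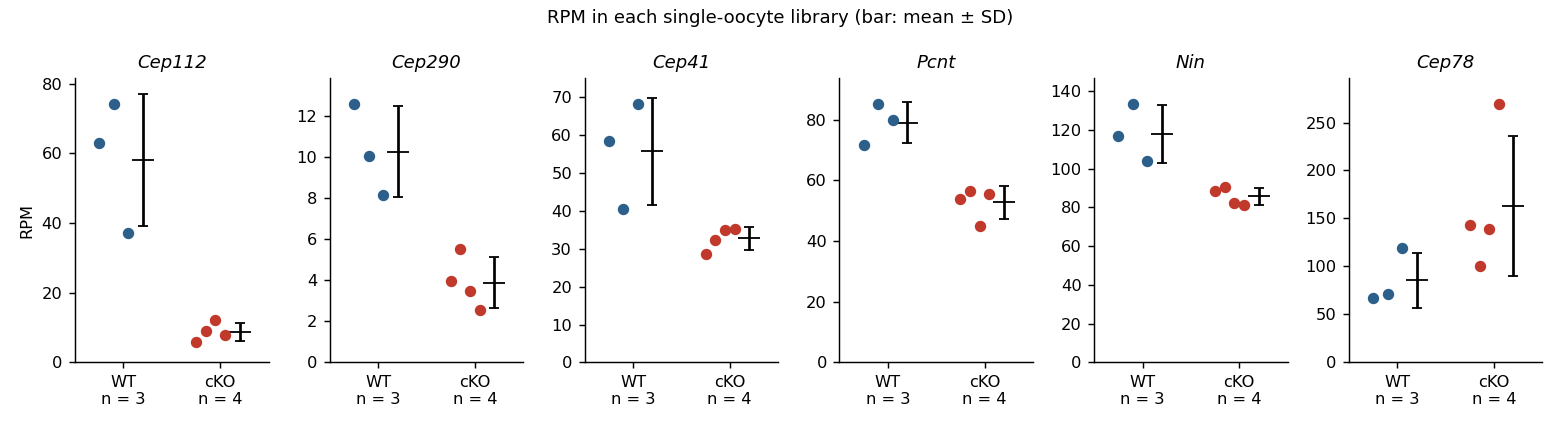
RPM (y axis, from 0 in each panel) of 6 members in each single-oocyte library of Setd1b WT (blue, n = 3) and Setd1b cKO (red, n = 4), with the group mean and SD as bars. All cKO points are under all WT points for Cep112, Cep290, Cep41, Pcnt and Nin, while for Cep78 the groups overlap.

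The members that code for appendage, satellite and cilium proteins held the other called decrease and had the lowest median of the role lists. Of 10 such genes 9 were tested, 1 fell past the threshold and 0 rose, 3 had all cKO libraries under WT, and the median log2 fold change was -0.51, with 7 below 0. Over all transcripts 1.95% fell past the threshold, 7.14% had all cKO libraries under WT and 39.7% lay below 0. Cep290, a protein of centriolar satellites and of the transition zone at the base of the cilium, lies at chr10:100487544-100573655 on the plus strand (ENSMUSG00000019971). It stood at 12.6, 10.02 and 8.14 RPM in WT and 3.96, 5.52, 3.48 and 2.56 RPM in cKO, with every cKO oocyte lower. Cep290 fell by 1.22 on the log2 scale (SE 0.30, 95% interval from -1.87 to -0.57, adjusted p = 0.0376 in limma). It no longer passed without cKO 1 (adjusted p = 0.0790 in limma), cKO 3 (0.0964), WT 1 (0.155) or WT 2 (0.130), although its log2 fold change stayed between -1.24 and -1.07 in those fits. A transcript of 1.57 RPM lies on the opposite strand of Cep290. The library kit does not mark strand, so reads that fit both cannot be told apart. Of the other members lower without overlap, Cenpj (11.7 RPM) and Nin (4.53 RPM) also had such a transcript.

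Cep164 and Cep89 are distal appendage proteins that act in the docking of centrioles. Cep164 stood at 93.4, 59.7 and 42.9 RPM in WT and 37.2, 45.5, 23.1 and 16.3 RPM in cKO, so that cKO 2 was above WT 3. Its log2 fold change was -1.11 (SE 0.37, adjusted p = 0.108, limma). Without cKO 4 and WT 3 together, the libraries that stood apart from their groups, it was -1.11 with an adjusted p of 0.0221 in limma and passed the threshold. Of 19 alternatives this was the only 1 in which Cep164 passed, and it was added after seeing the data. Without WT 1 the log2 fold change was -0.82 (adjusted p = 0.338, limma). Cep89 stood at 57.7, 39.9 and 43.2 RPM in WT and 27.3, 27.2, 25.8 and 25.1 RPM in cKO, with every cKO oocyte lower. Its log2 fold change of -0.79 (SE 0.21) came with an adjusted p of 0.0546 in limma, and in no fit did it reach a 2-fold change.

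Cep41, which takes part in the glutamylation of ciliary tubulin, was at 58.4, 40.5 and 68.1 RPM in WT and 28.7, 32.4, 35.0 and 35.2 RPM in cKO. The genotypes did not overlap, and its log2 fold change was -0.72 (SE 0.23, adjusted p = 0.0986, limma). Cep83, the distal appendage protein on which the others assemble, was at 43.0, 48.6 and 42.7 RPM in WT and 27.2, 48.1, 32.9 and 21.8 RPM in cKO. Here 3 of 4 cKO oocytes were under all WT oocytes, cKO 2 was not, and the log2 fold change was -0.51 (SE 0.27, adjusted p = 0.316, limma). Cep83os, a noncoding transcript of low level that runs in the opposite direction from the start of Cep83, was at 2.02, 1.77 and 1.403 RPM in WT and 2.08, 6.67, 3.13 and 3.15 RPM in cKO (log2 fold change 0.72, SE 0.34, adjusted p = 0.253, limma). The spans of Cep83 and Cep83os share 58 bases, and only reads there cannot be told apart without strand. The other tested members of the list, Cep128, Cep162, Cep19 and Cep126, had overlapping genotypes and log2 fold changes from -0.05 to 0.46.

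Cep131, a protein of centriolar satellites, did not pass the filter on low values. It had 13, 11 and 12 reads in WT and 2, 3, 0 and 1 reads in cKO. All cKO counts were lower, but the level in WT was only 1.01 ± 0.14 RPM (SD, n = 3). In a fit without the filter its log2 fold change was -0.82 (SE 0.16, adjusted p = 0.0326, limma) on the log2(RPM + 1) scale, where the added 1 RPM shrinks the difference of a transcript at this level, and its cKO mean was 0.140 ± 0.108 RPM (SD, n = 4).

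Since 3 of these members are distal appendage genes, the remaining 2 listed genes of that structure outside the symbol rule, Sclt1 and Fbf1, are set beside them, in a grouping made after the values were seen. Sclt1 was at 104.5, 66.0 and 92.2 RPM in WT and 50.8, 35.99, 32.6 and 39.5 RPM in cKO and fell by 1.11 on the log2 scale (SE 0.24, adjusted p = 0.0232, limma). Fbf1 was at 4.21, 3.39 and 3.93 RPM in WT and 0.9897, 2.14, 1.39 and 0.117 RPM in cKO, with a log2 fold change of -1.26 (SE 0.36, adjusted p = 0.0691, limma). Fbf1 and Sclt1 had the lowest log2 fold changes of the 29 tested centrosome and spindle pole genes outside the rule. The median of that list was 0.01.

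**Figure D3:**
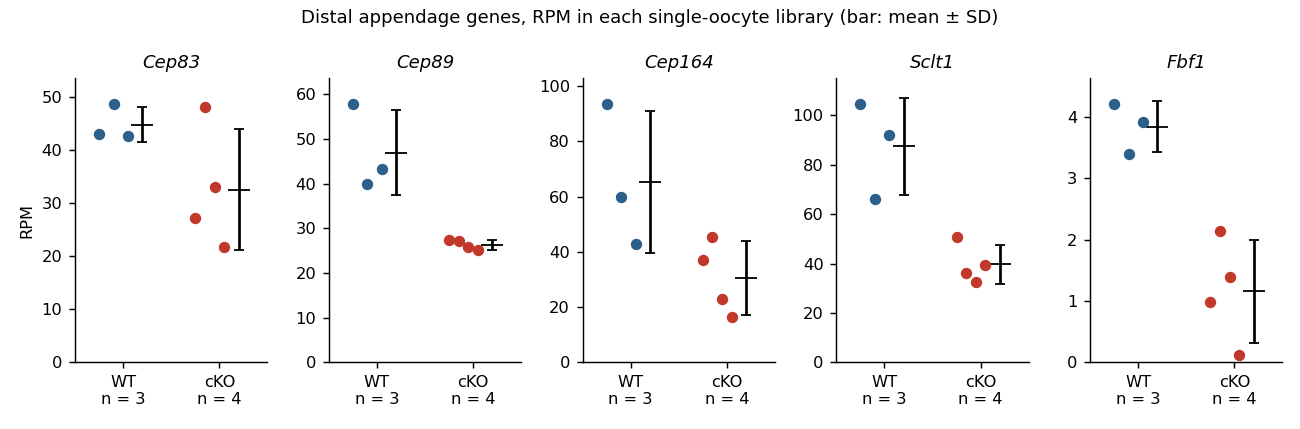
RPM (y axis, from 0 in each panel) of the 5 distal appendage genes in each library of Setd1b WT (blue, n = 3) and Setd1b cKO (red, n = 4), with mean and SD as bars. The genotypes are apart for Cep89, Sclt1 and Fbf1 and overlap for Cep83, by cKO 2, and for Cep164. The genes were grouped after their values were seen, and 7.14% of all transcripts had all cKO libraries under WT.

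Genes for pericentriolar material and for the anchoring or growth of microtubules had 13 of 14 members tested and 0 past the threshold in either direction. The background is 3.76% higher and 1.95% lower. With all cKO values under WT stood 4 of them, where the background is 7.14%, and the median log2 fold change was -0.25, with 9 below 0, where it is 39.7%. Pcnt codes for pericentrin, the scaffold of the microtubule organising centres of the oocyte. It was at 71.7, 85.0 and 79.9 RPM in WT and 53.8, 56.5, 44.8 and 55.6 RPM in cKO. The gap between the genotypes was wider than the spread within either, and the log2 fold change was -0.58 (SE 0.20, 95% interval from -1.01 to -0.14, adjusted p = 0.116, limma), so that it failed the correction and was well under 2-fold. Ninein (Nin), which anchors microtubule ends, was at 117, 133 and 104 RPM in WT and 88.5, 90.6, 82.5 and 81.4 RPM in cKO, again without overlap (log2 fold change -0.45, SE 0.19, adjusted p = 0.201, limma).

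Cep170b, a paralogue of the subdistal appendage gene Cep170, was at 12.5, 11.7 and 14.1 RPM in WT and 5.74, 7.99, 6.70 and 10.4 RPM in cKO. It had the lowest log2 fold change of this list, -0.69 (SE 0.26, adjusted p = 0.157, limma). Ckap5, a microtubule polymerase, was at 129, 154 and 130 RPM in WT and 114, 124, 122 and 101 RPM in cKO. The genotypes were only just apart, with a log2 fold change of -0.25 (SE 0.19, adjusted p = 0.514, limma). Cep57l1, a paralogue of the pericentriolar gene Cep57, was at 110, 97.3 and 76.7 RPM in WT and 88.6, 110, 72.1 and 60.2 RPM in cKO, and overlapped (log2 fold change -0.21, adjusted p = 0.692, limma). Cdk5rap2, which recruits gamma-tubulin ring complexes to the pericentriolar material, had a log2 fold change of -0.15, and Ninl and Cep72 had the highest of the list at 0.57 each, all with overlap. Tacc3, whose product stabilises spindle microtubules, could not be judged by the symbol rule, because the transcript filed under its name is a fragment with 10 reads in cKO and 22 in WT. The body of the gene lies in a transcript filed as Tmem129, at 435 to 1159 RPM in cKO and 481 to 1071 RPM in WT, with a log2 fold change of -0.05.

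In the gamma-tubulin ring complex, the nucleator of microtubules, 6 of 6 members were tested, 0 passed the threshold and 0 stood without overlap. The background is 3.76% higher and 1.95% lower past the threshold, and 13.2% higher and 7.14% lower without overlap. The median log2 fold change was -0.01. Tubg1 was at 51.7, 40.9 and 27.2 RPM in WT and 56.02, 56.1, 54.2 and 31.0 RPM in cKO. Tubg2 was at 71.0, 50.8 and 38.9 RPM in WT and 59.5, 62.3, 51.3 and 39.4 RPM in cKO. In both gamma-tubulin genes cKO 4 and WT 3 were the lowest of their groups. The log2 fold changes were 0.30 (SE 0.29) for Tubg1 and 0.01 (SE 0.26) for Tubg2, whose sign turned under centring and in some fits without a library, and the genes are close copies whose reads may be shared or discarded in mapping. Nedd1, which targets the complex to the spindle, was at 108, 83.3 and 46.3 RPM in WT and 66.9, 85.2, 63.9 and 38.6 RPM in cKO (log2 fold change -0.28, SE 0.33, adjusted p = 0.694, limma). Its log2 fold change was -0.62 without WT 3 and -0.02 without WT 1. The 95% intervals ran from -1.02 to 0.45 for Nedd1 and from -0.34 to 0.95 for Tubg1, the members of this list with the lowest and the highest log2 fold change.

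Centriole assembly genes, in cells that have lost their centrioles, were present at 3.46 to 85.5 RPM in WT (means). Of 11 members 11 were tested and 0 passed the threshold, where the background is 3.76% higher and 1.95% lower. The median log2 fold change was 0.08, which became -0.08 after centring and after quantile normalisation. Plk4, the kinase that starts centriole duplication, was at 32.8, 49.3 and 41.7 RPM in WT and 36.1, 37.1, 30.1 and 45.3 RPM in cKO, with interleaved libraries (log2 fold change -0.14, SE 0.23, adjusted p = 0.788, limma). Cenpj, which lengthens centriolar microtubules, was at 75.1, 66.5 and 61.0 RPM in WT and 54.5, 59.0, 58.4 and 54.1 RPM in cKO. Its groups were narrowly apart, with a log2 fold change of -0.25 (SE 0.19, adjusted p = 0.511, limma).

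Cep78, a protein of the centriole wall, had the highest log2 fold change of all members. It was at 66.8, 70.8 and 119 RPM in WT and 143, 101, 139 and 269 RPM in cKO. The libraries cKO 4 and WT 3 were the highest of their groups, and WT 3 was above cKO 2. The log2 fold change was 0.88 (SE 0.33, 95% interval from 0.14 to 1.61, adjusted p = 0.153, limma). Without cKO 4 and WT 3 together it was 0.87 with an adjusted p of 0.0163, still under 2-fold.

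**Figure D4:**
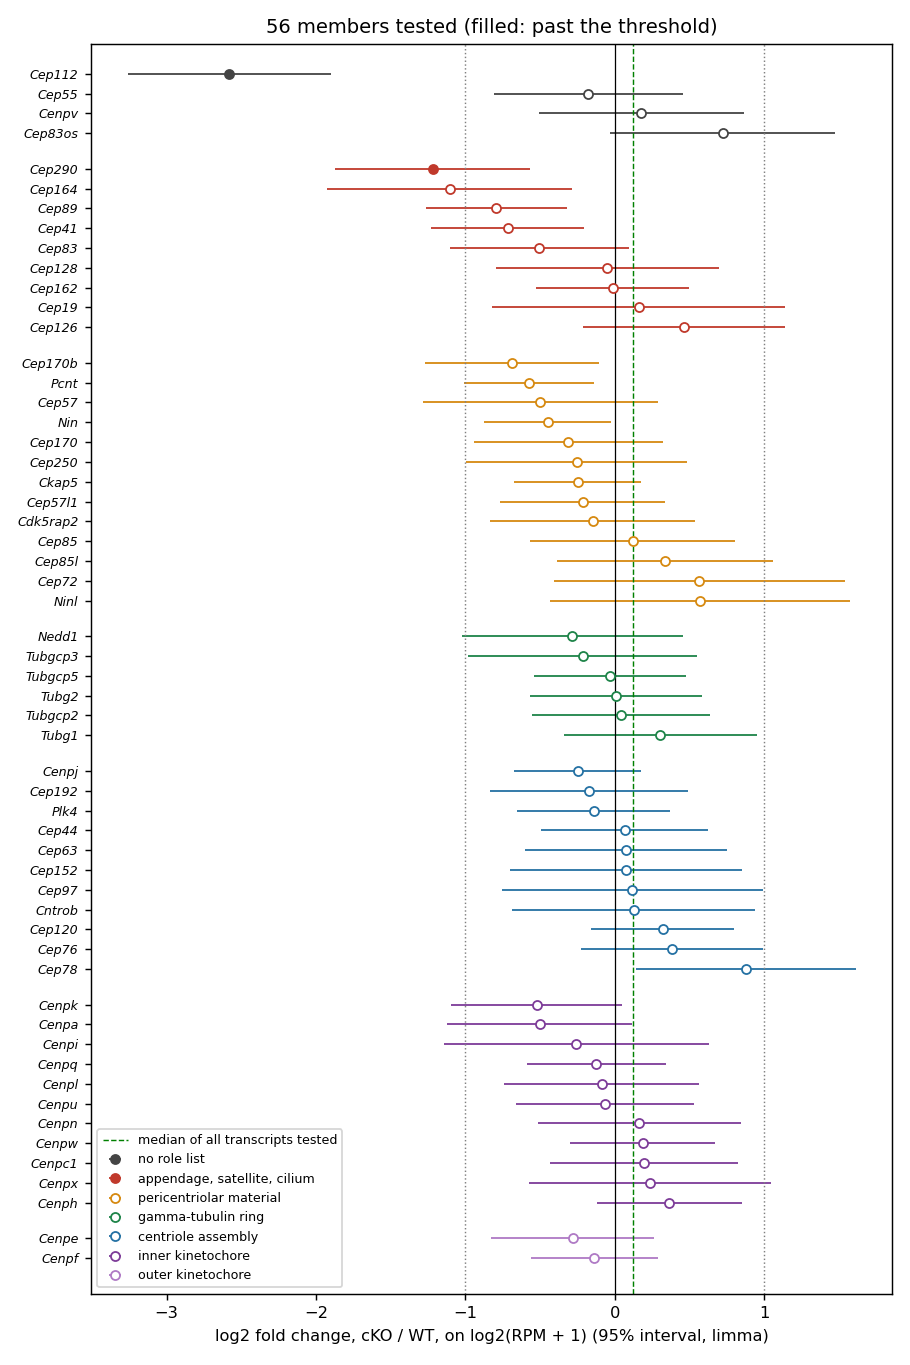
Log2 fold change of Setd1b cKO over WT with its 95% interval from limma (x axis) for the 56 members tested, grouped and coloured by role (y axis), filled where past the threshold, with the median of all transcripts as a dashed line and 2-fold changes as dotted lines. The 2 filled points are Cep112 and Cep290, and the intervals of the kinetochore and gamma-tubulin members all include 0.

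The centromere and kinetochore members showed no called difference. Of 11 inner kinetochore members and the 2 outer kinetochore members all 13 were tested in limma, with 0 past the threshold, 0 without overlap and 0 at an unadjusted p under 0.05. Among all transcripts 3.76% rose and 1.95% fell past the threshold, 13.2% and 7.14% stood without overlap, and 21.7% had such a p. The median log2 fold changes of the 2 lists were -0.07 and -0.21. Cenpn, which binds nucleosomes containing CENP-A, was at 573, 541 and 350.5 RPM in WT and 640, 681, 601 and 312 RPM in cKO. Cenpq, of the complex with CENP-O, CENP-P and CENP-U, was at 307, 300.3 and 317 RPM in WT and 266, 306, 347 and 225 RPM in cKO. Cenpx, a histone-fold protein of the complex with CENP-T, was at 168, 149 and 318 RPM in WT and 208, 147, 240 and 418 RPM in cKO. In each of these 3 the libraries interleaved, with log2 fold changes of 0.16 (SE 0.31), -0.12 (SE 0.21) and 0.24 (SE 0.37), and each sign turned in at least 1 fit with libraries left out. The kinesin gene Cenpe was at 322, 361 and 221 RPM in WT and 280, 294, 219 and 191 RPM in cKO (log2 fold change -0.28, SE 0.25). Cenpf, a protein of the fibrous corona, was at 348, 369 and 317 RPM in WT and 326, 341, 311 and 276 RPM in cKO (log2 fold change -0.14, SE 0.19). Both overlapped between genotypes. The centromeric histone gene Cenpa had a log2 fold change of -0.50 (SE 0.28, adjusted p = 0.338, limma), and Cenpk, with -0.52, was the lowest of the list.

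Ordered by WT level per kilobase of exon, the kinetochore genes Cenpx (196 RPM per kilobase), Cenpn (148) and Cenpq (118) led the transcripts filed under member names. Cenpx overlapped Cenpn and Cenpn overlapped Cenpq in their libraries, while Cenpx did not overlap Cenpq. Tacc3 was last, by the fragment filed under its name divided by the exon length of the whole gene. Its body, filed as Tmem129 with a WT mean of 859 RPM, was not ranked. Cenpq did not overlap the next gene, Cenph (37.2), and from Cenph down to Tacc3 every neighbour overlapped the next. Cenpe (35.0), Tubg2 (30.5), Cep78 (27.6) and Cep55 (26.3), a gene for a protein of the midbody, followed. The members that fell were not the highest, with Cep290 at 0.881 RPM per kilobase in WT and rank 44. Across the 56 members, the log2 fold change had a Spearman correlation of -0.45 with the number of exon blocks and -0.36 with exon length. With the CpG count of the promoter window it was 0.10, over 45 members. These values are a description over genes that share the same libraries and whose gene features are themselves related.

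**Figure D5:**
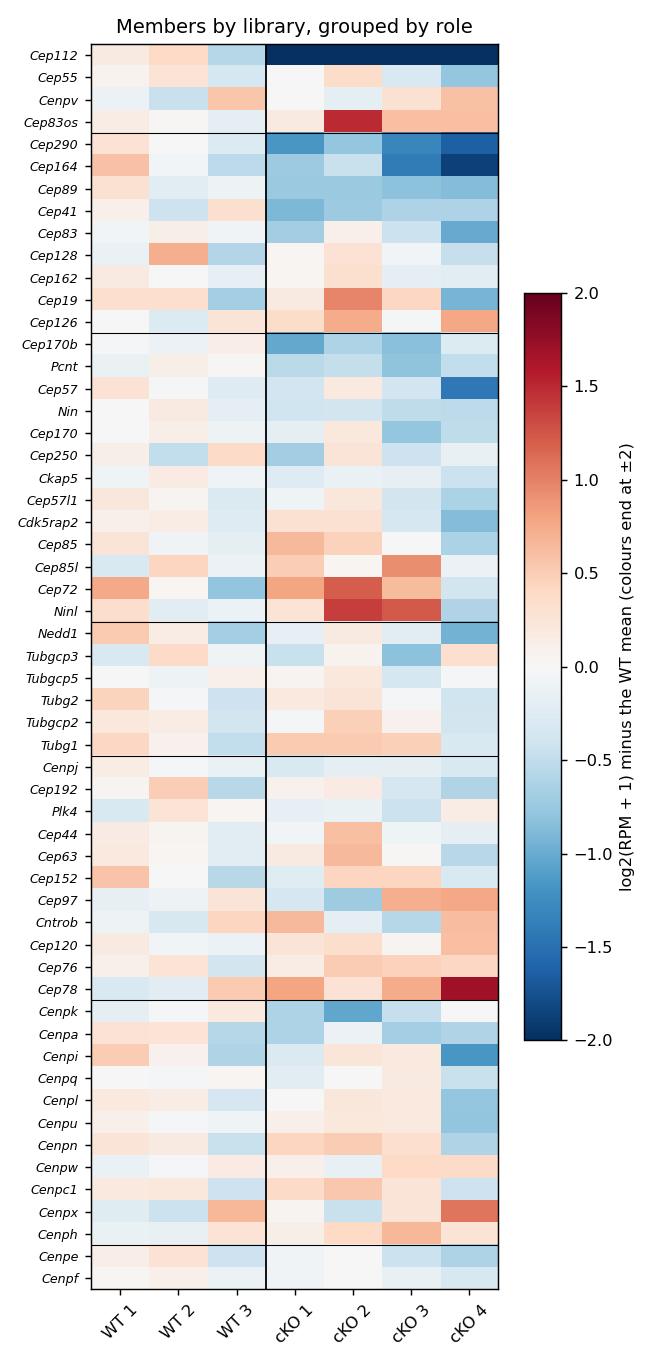
Log2(RPM + 1) minus the WT mean (colour, ending at ±2) for the 56 members tested (rows, grouped by role) in each library (columns, WT 1 to 3 and cKO 1 to 4). The Cep112 row is dark blue in all 4 cKO libraries, and the columns cKO 4 and WT 3 are bluer than the other columns of their genotype in many rows.

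Among the libraries, cKO 4 and WT 3 stood apart. Of the 56 members, cKO 4 had the lowest cKO value in 34 (60.7%, against 37.4% of all transcripts) and WT 3 the lowest WT value in 35 (62.5%, against 40.4%), and both held for 29 (51.8%, against 25.2%). On the second principal component of all transcripts, which carried 31.0% of the variance, cKO 4 lay at -44.7 and WT 3 at -64.3, while the other libraries lay between -6.52 and 52.6. Without both, Cep112 had a log2 fold change of -2.83 and Cep290 of -1.22, and 3 members fell past the threshold with Cep164 as the third, while over all transcripts the count that fell went from 355 to 522 and the count that rose from 683 to 1015.

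Genes of the same structures outside the symbol rule were read in the same fit. Of 38 listed centrosome and spindle pole genes 30 were in the table and 29 tested, of which 0 rose and 1 fell past the threshold, Sclt1, where the background is 3.76% and 1.95%. Without overlap between genotypes stood 1 higher and 2 lower (background 13.2% and 7.14%), 4 had an unadjusted p under 0.05 in limma (background 21.7%), and the median log2 fold change was 0.01. Upward, and named after their values were seen, Haus7 of the augmin complex had a log2 fold change of 1.17 (SE 0.39, adjusted p = 0.105, limma) with overlap. Sfi1, a centrin-binding protein, had 0.90 (SE 0.24, adjusted p = 0.0562, limma) with all cKO libraries above WT. Of 15 listed kinetochore genes 11 were in the table and tested, with 0 past the threshold in limma (background 3.76% and 1.95%) and a median of 0.05. Without overlap stood 1, Nsl1, higher in cKO (background 13.2%), and 0 lower (7.14%). An unadjusted p under 0.05 in limma was reached by 1 (background 21.7%). By genomic position, 12 further genes that carry a name of the rule, among them Sass6, Cep295 and Tubgcp6, were found in the table under another name, as was the body of the member Tacc3. None of these 13 transcripts passed the threshold in limma (background 3.76% and 1.95%) and none had an unadjusted p under 0.05 (background 21.7%). Their log2 fold changes ran from -0.46 to 0.46. Cep295, needed to convert centrioles to centrosomes, was at 39.0, 35.5 and 30.1 RPM in WT and 27.5, 25.7, 21.2 and 29.8 RPM in cKO, and it was 1 of 2 of these transcripts with all cKO values under WT, where the background is 7.14%. Its log2 fold change was -0.41 (SE 0.22, adjusted p = 0.314, limma).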

How the data were processed

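Single GV oocytes were amplified with the SMARTer Ultra Low kit, which does not mark strand, and sequenced as 75-base single reads. The study's methods name trim galore, Hisat on GRCm38 guided by Ensembl splice sites, removal of hits with a mapping quality under 20 (which discards reads that fit close gene copies), and SeqMonk quantification over oocyte transcripts with isoforms merged. The submitters' processing notes also list bcl2fastq 1.8.4 and featureCounts 1.4.4. Whether counting used strand is not given in the sources used here, and 18 of the 58 members have a transcript of at least 1 RPM on the opposite strand.

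The values deposited by the authors are log2 RPM scaled by library total, and a transcript without reads carries the value of 0.9 read. Divided by what 1 read is worth, 100% of values came out as whole reads within 0.01 read. Transcripts with 0 reads were set to 0 RPM, and log2(RPM + 1) was fitted without covariates in limma 3.58.1 (lmFit and eBayes with trend, R 4.3.3). A transcript entered the fit when 3 or more libraries had 1 RPM or more. The pseudocount understates changes of low transcripts. P-values were two-sided and adjusted over all 18179 transcripts by Benjamini-Hochberg. The fit was tested on simulated data. Exon lengths and gene positions came from GENCODE M21 and promoters from RefSeq (GRCm38.p6). Python 3.11.15, pandas 2.3.3, numpy 2.4.6, scipy 1.17.1 and matplotlib 3.10.9 were used.

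The members, role lists and alternatives were chosen with earlier results of these data known. Named members were Cep112, those past the threshold, and the 3 of highest mean RPM in each role list. Cep89, Cep170b, Pcnt and Cep83os were added for their separate genotypes after their values were seen, as were Cep131, Cdk5rap2, Cenpa and the members named as ends of ranges. Alternatives were other pseudocounts, filters, scalings, the eBayes trend, a replicate block, each library left out, and, added after seeing the data, voom on the recovered reads, leaving out cKO 4 and WT 3 together, and naming by position.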

Additional observations from a re-analysis of the deposited data

Results flagged for a closer look

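In 4 of the 56 members 1 of the 4 Setd1b cKO libraries lay far from the other 3, by the gap to its nearest neighbour as a share of the range of the group (Dixon's ratio). About 1 in 20 groups, or 3 here, would do so by chance. Tubg1 stood at 31.0 RPM in cKO 4 against 54.2 to 56.1 RPM in the others, a ratio of 0.927. Cenpu, of the CENP-O complex, stood at 45.4 RPM in cKO 4 against 85.8 to 92.6 RPM, a ratio of 0.857. Cenpa stood at 25.1 RPM in cKO 2 against 16.6 to 17.6 RPM, a ratio of 0.887. Cep44, a centriole protein, stood at 42.2 RPM in cKO 2 against 23.9 to 26.6 RPM, a ratio of 0.850. None of these 4 members passed the threshold in limma, with unadjusted p from 0.101 to 0.806.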

How the results depend on the processing

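Cep112 kept its direction and stayed past the threshold in 19 of 19 alternatives. The count of members that fell, 2 in the report, was 1 with a pseudocount of 5 RPM and 1 with no filter on low values, and lay between 1 and 2 without single libraries, while 0 rose in every setting. Cep290 was the member lost, at -0.78 (adjusted p = 0.0368, limma) with the larger pseudocount and -1.22 (adjusted p = 0.0745) without the filter. The median of the members ran from -0.19 to 0.003144 without single libraries. Signs turned for Cenpn (-0.057 without WT 3, up to 0.42 without cKO 4), Cenpq (0.0044 without cKO 4 and WT 3 together), Cenpx (-0.040 under the replicate block and without cKO 4, up to 0.57 without WT 3) and Tubg2 (-0.15 centred on the median, -0.05 without cKO 1, -0.07 without cKO 2, -0.0083 without WT 2, -0.20 without WT 3, up to 0.23 without WT 1, and -0.063 without cKO 4 and WT 3 together). The cause was not tested. The deviations of libraries with the same number had correlations of 0.192, 0.295 and -0.129. These 3 values are too few to decide whether the numbers pair libraries. The highest correlation between genotypes was that of cKO 4 with WT 3 (0.608). With the replicate block, in which cKO 4 has no partner, Cep112 was at -2.55, Cep290 at -1.08, 2 members fell and 0 rose, and the median was 0.0031, while over all transcripts 924 rose and 479 fell against 683 and 355. Of the transcripts past the threshold 65.8% were higher, but 46.3% after centring, 49.2% after quantile normalisation and 57.5% with voom. Voom called 2 members lower. The count models edgeR and DESeq2, of which the study used DESeq2, were not run on the recovered reads. Depth limits members such as Cep131, with at most 3 reads per cKO library.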
